A study of Oryctolagus cuniculus with 6 samples.

Results

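The activator protein 1 (AP-1) and immediate early genes were followed in the cut facial nerve of the rabbit, with and without an I-125 seed. The set holds 10 genes chosen by symbol, namely FOS, FOSB, FOSL1, FOSL2, JUNB, JUND, ATF3, EGR1, EGR3 and MAFF. Of these, 8 were matched by symbol among the 17396 genes listed for every library, and all 8 were among the 14003 genes that passed the filter on low counts. JUNB and JUND were not analysed here. All animals were male wild-type Japanese white rabbits of 3 to 4 months, and in all of them the main trunk of the facial nerve was transected with scissors and the skin closed. In the FNI group no seed was placed. In the FNI+I-125 group a seed of 0.8 mCi was left 0.3 to 0.5 cm from the nerve at skin suturing, and in both groups the nerve was taken on day 14. Each group had 3 libraries of poly(A) RNA, 1 per rabbit, with 16031151 to 16798012 counts per library. The sham group was not analysed here, so the levels in an uncut nerve are not given.

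AP-1 is a dimer of basic leucine zipper proteins. A FOS protein (FOS, FOSB, FOSL1 or FOSL2) cannot bind DNA alone and pairs with a JUN protein, whereas JUN proteins can also pair with each other or with ATF3. MAFF is a small MAF protein without a transactivation domain that dimerises with other zipper factors. EGR1 and EGR3 are zinc finger factors that share with FOS the rapid induction through MAP kinases, serum response factor (SRF) and its ELK partners. In an injured peripheral nerve, JUN in Schwann cells drives the repair programme and opposes EGR2, the factor of myelination, and ATF3 marks injured neurons and Schwann cells. The same early genes are induced in macrophages, neutrophils, fibroblasts and endothelial cells, and also by handling of the tissue.

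All 8 genes had a higher mean in the FNI+I-125 group, by 1.68-fold (MAFF) to 4.35-fold (FOSB), but none passed the test across all genes. A call required an adjusted p under 0.05 together with a |log2 FC| of at least 1.5, and edgeR's quasi-likelihood test called 0 of 8, as it did 0% of all 14003 genes. FOS, FOSB and FOSL1 had an unadjusted p under 0.05 (3 of 8, against 9.23% of all genes that were higher at this p), and all 3 also had a log2 fold change of 1.5 or more (2.77% of all genes). DESeq2 called 0 of 8 (1.67% of all genes were called higher), with 5 of 8 at an unadjusted p under 0.05 (9.81% of all genes). Limma-voom called 0 of 8 and gave 0 of 8 at the unadjusted p in either direction (15.4% of all genes). The median log2 fold change of the 8 genes was 1.43, and that of all genes tested was 0.01. MAFF was the 1 gene of 8 whose groups did not overlap, beside 14.8% of all genes that were higher without overlap. Values below are CPM, the read counts of a gene relative to the library's total after edgeR's TMM scaling. Since CPM is not corrected for transcript length, levels are compared between libraries and not between genes.

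The libraries of each group differed from each other in ways that touch these genes, and these differences are given first. The nerve identity of the tissue was checked with 12 Schwann cell markers, all of which had counts. Their summed level was 7896, 4613 and 36110 CPM in FNI replicates 1, 2 and 3 and 949, 4174 and 2289 CPM in FNI+I-125 replicates 1, 2 and 3. FNI replicate 3 thus stood far above the other nerves in Schwann cell transcripts, and its 13 macrophage and monocyte markers were the lowest, at 289 CPM against 1028 and 1358 CPM in the other FNI nerves and 1995 to 3135 CPM in the FNI+I-125 group. The 9 neutrophil markers summed to 1648 CPM in FNI+I-125 replicate 1 and to 19.4 to 181 CPM in the other 5 libraries. The 14 skeletal muscle markers stood at 5457 and 4957 CPM in FNI+I-125 replicates 1 and 2 and at 56.8 to 172 CPM elsewhere. The 10 salivary gland and epithelial markers summed to 48867 CPM in FNI replicate 2 and to 56.7 to 4021 CPM elsewhere. In whole tissue, fewer cells of a type and less RNA per cell cannot be told apart.

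**Figure D1:**
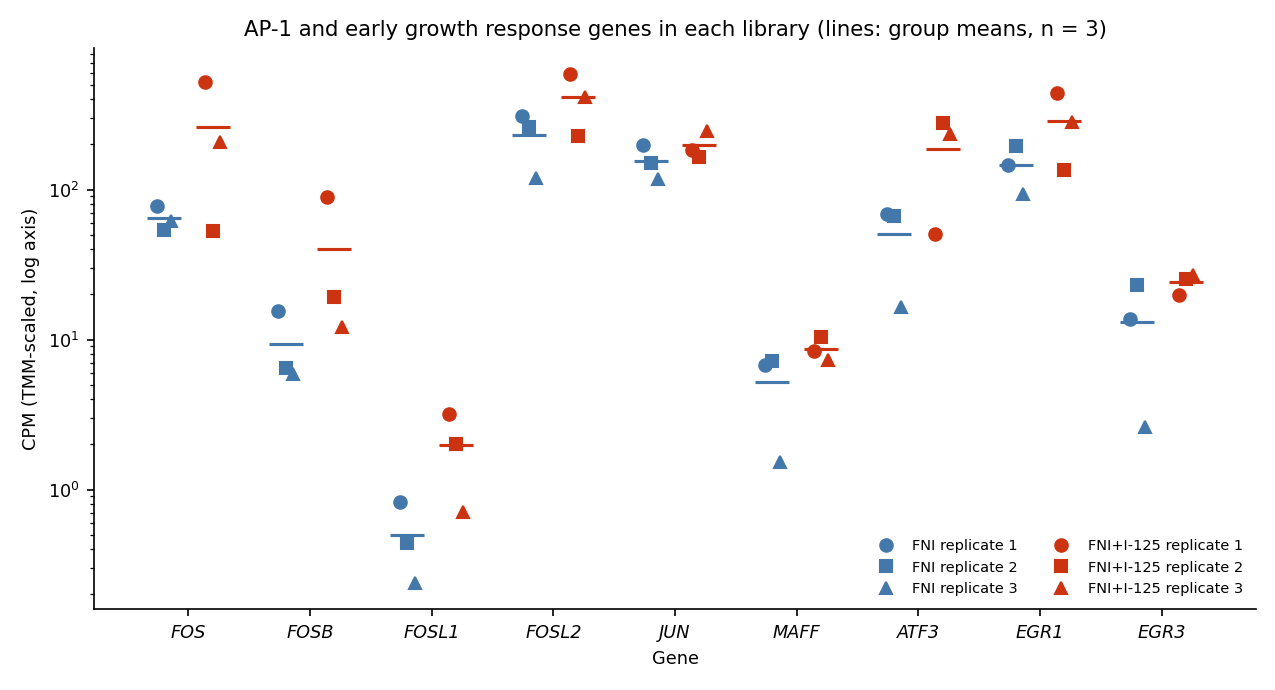
CPM of the 8 genes and of JUN in each library on a log axis, with FNI in blue, FNI+I-125 in red, one symbol shape per replicate number and lines at the group means (n = 3 each). FNI+I-125 replicate 1 (red circles) was the highest library for all 4 FOS genes and EGR1, while for ATF3 it lay at 50.4 CPM among the FNI nerves. MAFF was the gene whose red and blue symbols did not overlap.

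FOS, the prototype partner of JUN, stood at 78.1, 54.1 and 61.3 CPM in FNI replicates 1, 2 and 3 and at 524, 52.8 and 207 CPM in FNI+I-125 replicates 1, 2 and 3. Thus 2 of the 3 irradiated nerves lay above every FNI nerve, and FNI+I-125 replicate 2 was the lowest of all 6. The FNI nerves lay within 1.44-fold of each other and the FNI+I-125 nerves within 9.93-fold. The group levels were 64.5 ± 12.3 and 261 ± 241 CPM (SD, n = 3 each), for a log2 fold change of 2.02 (SE 0.77, unadjusted p = 0.0396, adjusted p = 0.286, edgeR). The two-sided exact permutation test on log2(CPM + 1) values gave p = 0.4, where 3 against 3 cannot go below 0.1. Without FNI+I-125 replicate 1 the log2 fold change of FOS was 1.01, and without FNI+I-125 replicate 2 it was 2.48.

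FOSB, whose protein is close to FOS, had 15.5, 6.49 and 5.91 CPM in the FNI nerves and 89.8, 19.2 and 12.2 CPM in the FNI+I-125 nerves. Its groups overlapped only through FNI replicate 1, which lay above FNI+I-125 replicate 3. The log2 fold change of FOSB was 2.12 (SE 0.86, unadjusted p = 0.0487, adjusted p = 0.293, edgeR), and the exact permutation test gave p = 0.2. It depended most on FNI+I-125 replicate 1, without which it was 0.75.

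FOSL1, which encodes FRA-1, was the lowest-counted gene of the set, with 14, 7 and 4 counts in the FNI nerves and 49, 33 and 12 counts in the FNI+I-125 nerves. The order of the 6 libraries was the same as for FOSB, with FNI replicate 1 above FNI+I-125 replicate 3. Its log2 fold change was 1.96 (SE 0.74, unadjusted p = 0.0373, adjusted p = 0.283, edgeR) and ran from 1.43 to 2.51 with 1 library left out. With 4 to 49 counts per library, counting error adds to the spread between rabbits for this gene more than for the others.

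FOSL2, which encodes FRA-2, had 310, 262 and 120 CPM in the FNI nerves and 594, 228 and 418 CPM in the FNI+I-125 nerves. As with FOS, replicates 1 and 3 of the FNI+I-125 group lay above every FNI library and replicate 2 lay among them. The difference was smaller, at 231 ± 98.8 against 413 ± 183 CPM (SD, n = 3 each) and a log2 fold change of 0.84 (SE 0.47, adjusted p = 0.371, edgeR). Without FNI+I-125 replicate 1 it was 0.48, and without FNI replicate 3 it was 0.51.

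The share of each FOS gene in the summed FOS family counts does not depend on how libraries are scaled. FOS made up 19.3%, 16.7% and 32.7% of these counts in the FNI nerves and 43.3%, 17.5% and 32.5% in the FNI+I-125 nerves. FOSL2 made up 76.7%, 81.1% and 64.1% against 49.0%, 75.5% and 65.5%. FNI+I-125 replicate 1 was therefore the library with the largest share of FOS and the smallest share of FOSL2, whereas FNI+I-125 replicates 2 and 3 lay within the range of the FNI nerves for both. FOSB reached 7.41% and 6.34% in FNI+I-125 replicates 1 and 2 and lay between 1.91% and 3.82% in the other 4 libraries. These shares are a description and were not tested.

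**Figure D2:**
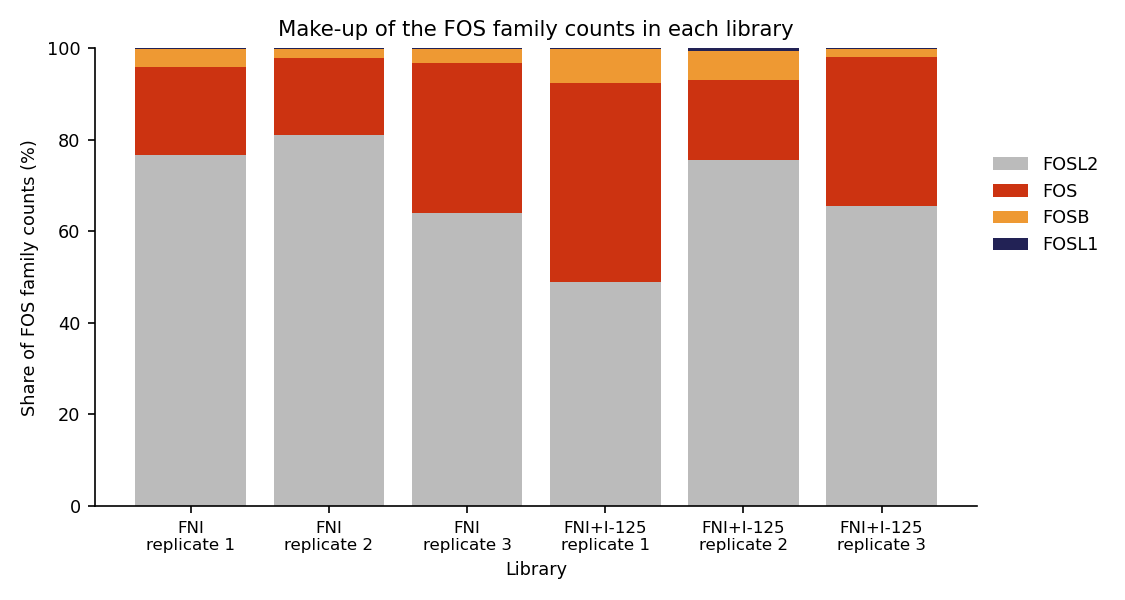
Share of FOSL2, FOS, FOSB and FOSL1 in the summed FOS family counts (%) of each of the 6 libraries, from raw counts. FOS takes 43.3% in FNI+I-125 replicate 1, and 16.7% to 32.7% in the other libraries.

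JUN is no member of the set but is the partner that FOS proteins need, and it was named by the rule for genes. It stood at 200, 150 and 118 CPM in the FNI nerves and at 184, 166 and 248 CPM in the FNI+I-125 nerves. The groups overlapped, with a log2 fold change of 0.35 (SE 0.25, adjusted p = 0.464, edgeR). The number of JUN counts per FOS count was 2.56, 2.77 and 1.93 in the FNI nerves and 0.35, 3.14 and 1.20 in the FNI+I-125 nerves. This ratio was lowest in FNI+I-125 replicate 1. Since counts are not corrected for transcript length, it is compared only between libraries.

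ATF3, a stress-induced factor that pairs with JUN, had 69.3, 66.2 and 16.5 CPM in the FNI nerves and 50.4, 279 and 234 CPM in the FNI+I-125 nerves. Here FNI+I-125 replicates 2 and 3 were the high ones, and replicate 1, which was highest for every FOS gene, lay below FNI replicates 1 and 2. The log2 fold change of ATF3 was 1.89 (SE 0.79, unadjusted p = 0.0531, adjusted p = 0.299, edgeR), and the exact permutation test gave p = 0.3. Without FNI+I-125 replicate 1 it was 2.34, and without FNI replicate 3 it was 1.45. With both of these libraries left out it was 1.91 (2 against 2, unadjusted p = 0.000198, adjusted p = 0.340, edgeR), an alternative added after seeing the data. Each was the lowest of its group for ATF3, so leaving them out narrowed the spread that this p measures. The number of ATF3 counts per JUN count was 0.35, 0.44 and 0.14 in the FNI nerves and 0.27, 1.68 and 0.94 in the FNI+I-125 nerves.

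MAFF had 6.79, 7.24 and 1.54 CPM in the FNI nerves and 8.37, 10.5 and 7.28 CPM in the FNI+I-125 nerves. The exact permutation test gave its smallest p, 0.1, since all FNI+I-125 nerves exceeded all FNI nerves, but the lowest FNI+I-125 value was only 1.005 times the highest FNI value. Its log2 fold change was 0.75 (SE 0.57, adjusted p = 0.491, edgeR), and 0.29 without FNI replicate 3. With upper-quartile scaling the groups of MAFF overlapped, and 11.9% of all genes were higher without overlap. With library size alone, or with library sizes that left out muscle and gland genes, 1 of the 8 genes was higher without overlap, beside 14.1% and 13.3% of all genes.

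EGR1, a zinc finger factor of growth factor and stress responses, had 145, 197 and 93.7 CPM in the FNI nerves and 440, 134 and 282 CPM in the FNI+I-125 nerves. Its order within the FNI+I-125 group was that of FOS and FOSL2, with replicate 2 among the FNI nerves. The log2 fold change of EGR1 was 0.97 (SE 0.48, adjusted p = 0.334, edgeR). It was 0.52 without FNI+I-125 replicate 1.

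EGR3, an early growth response factor of the same zinc finger family, had 13.8, 23.1 and 2.60 CPM in the FNI nerves and 19.9, 25.5 and 27.1 CPM in the FNI+I-125 nerves. Here the spread lay in the FNI group, whose libraries differed by 8.87-fold, while the FNI+I-125 nerves lay within 1.36-fold. The groups overlapped, as FNI+I-125 replicate 1 lay below FNI replicate 2. The log2 fold change of EGR3 was 0.88 (SE 0.70, adjusted p = 0.507, edgeR), and 0.37 without FNI replicate 3. EGR2, the myelination factor of the same family, stood at 46.0, 28.8 and 89.8 CPM in the FNI nerves and at 16.0, 65.2 and 28.7 CPM in the FNI+I-125 nerves. It had a log2 fold change of -0.58 (adjusted p = 0.625, edgeR) and was named for its family after its value was seen.

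**Figure D3:**
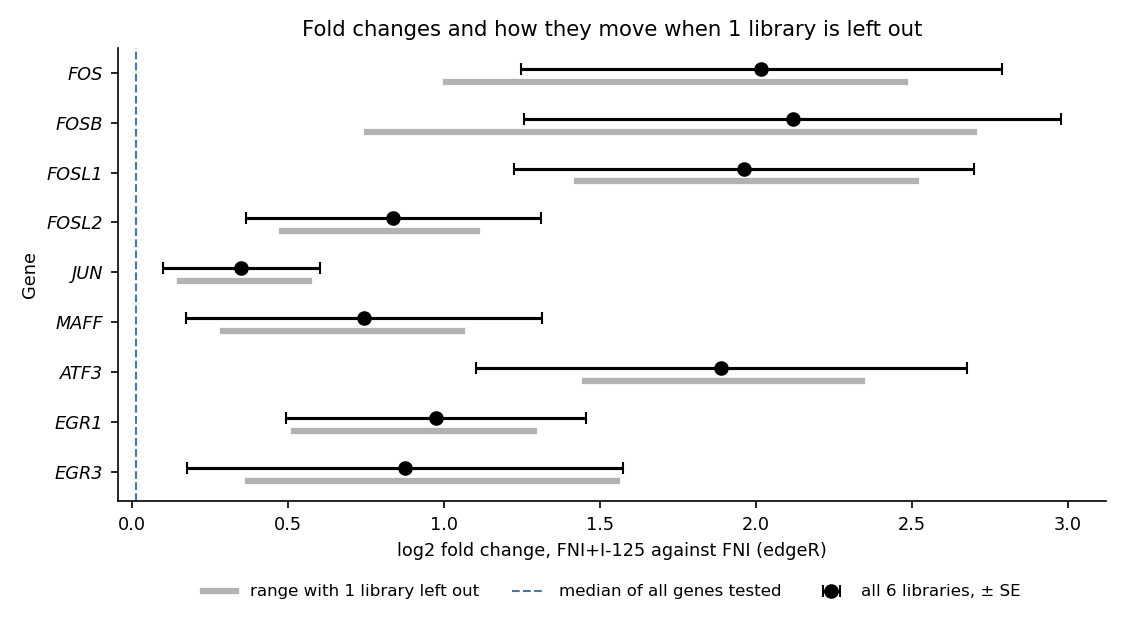
log2 fold change of FNI+I-125 against FNI for each gene (black points, bars ± SE, edgeR) with the range when 1 library is left out (grey bars) and the median of all genes tested (dashed line, 0.01). All points and grey bars lie above 0, and FOSB has the widest grey bar, from 0.75 to 2.70.

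Across the 8 genes, 1 library of each group stood most often at the end of the order. FNI+I-125 replicate 1 was the highest library for 5 of them (the 4 FOS genes and EGR1), FNI+I-125 replicate 2 for ATF3 and MAFF, and FNI+I-125 replicate 3 for EGR3. FNI replicate 3 was the lowest library for 7 of 8, with FOS as the exception. Without FNI+I-125 replicate 1 and FNI replicate 3 together, the log2 fold changes ran from 0.15 (FOSL2) to 1.91 (ATF3), and 2 of 8 genes were higher without overlap, beside 22.2% of all genes in these 4 libraries. Without FNI replicate 1, 2 or 3, the count was 3, 2 and 0 of 8, beside 19.4%, 20.6% and 16.5% of all genes. Without FNI+I-125 replicate 1, 2 or 3 it was 3 of 8 each time, beside 18.7%, 18.7% and 20.8% of all genes. The neutrophil sum was also highest in FNI+I-125 replicate 1, and within the FNI+I-125 group FOS, FOSL2 and EGR1 had the same order of libraries as this sum. FOSB, FOSL1, ATF3, EGR3 and MAFF did not. In FNI+I-125 replicate 2, where the neutrophil sum was the lowest of the group, FOSB and FOSL1 were second highest and MAFF was highest. ATF3 and EGR3 were the lowest of the group in FNI+I-125 replicate 1, where this sum was highest. In the FNI group the neutrophil sum fell from replicate 1 to 2 to 3. FOSL2, FOSB, FOSL1 and ATF3 shared that order, and FOS, EGR1, EGR3 and MAFF did not. Of the 8 genes, only FOSL2 had the order of the neutrophil sum in both groups. The macrophage sum was lowest in FNI replicate 3, as were 7 of the 8 genes. The summed fibroblast, endothelial and heat shock levels, described below, fell from replicate 1 to 2 to 3 in both groups. FOSB and FOSL1 had this order in both groups. The part of these cells and of the heat shock genes in the levels was not tested.

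**Figure D4:**
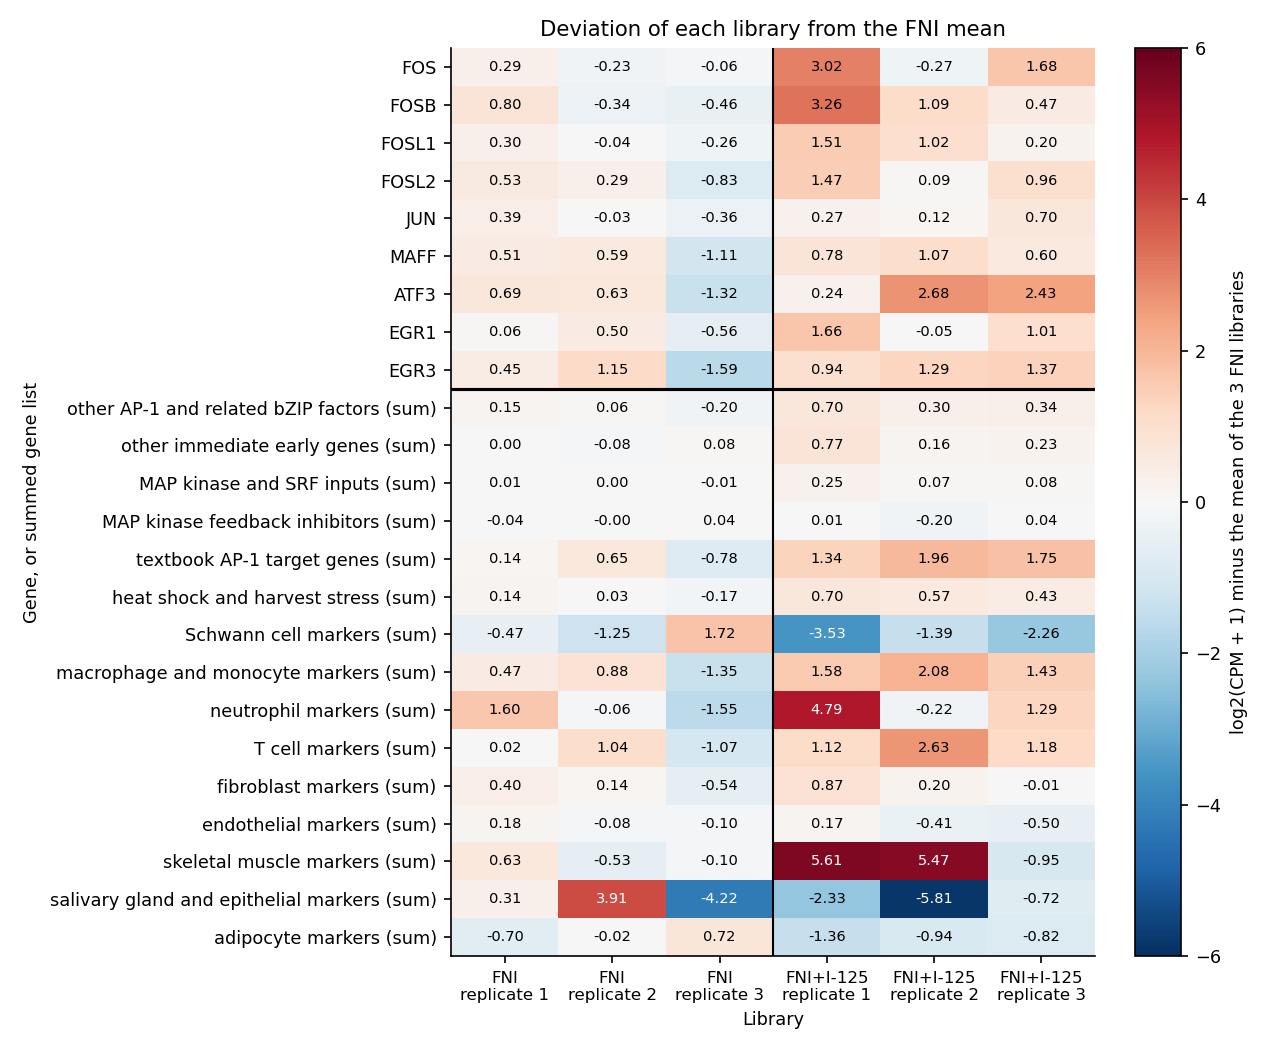
Deviation of each library from the mean of the 3 FNI nerves in log2(CPM + 1), for the 8 genes and JUN (above the line) and for the summed CPM of each gene list (below it), with red for higher and blue for lower. In FNI+I-125 replicates 1, 2 and 3, FOS deviates by 3.02, -0.27 and 1.68 and ATF3 by 0.24, 2.68 and 2.43, while the neutrophil sum deviates by 4.79, -0.22 and 1.29.

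The pathway that leads to these genes was described with further lists, and 0 genes of any list were called by edgeR at the adjusted p, so counts at an unadjusted p under 0.05 are given. They are to be read beside 9.23% of all genes that were higher and 7.73% that were lower at this p. Of 28 MAP kinase and SRF genes tested, 4 were higher and 2 lower at this p, with a median log2 fold change of 0.19. MAPKAPK2, a kinase downstream of p38, was among them, with 127, 141 and 107 CPM against 203, 188 and 168 CPM. Its log2 fold change was 0.58 (SE 0.15, adjusted p = 0.280, edgeR) without overlap between the groups. Also at this p, and named after their values were seen, were MAP2K3, RPS6KA1 and ELK4 (higher) and MAP2K6 and MAP3K1 (lower). MAPK3, ELK3 and MRTFB, the other genes named for their high level, overlapped between the groups, with log2 fold changes of -0.62, 0.42 and -0.24.

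Among 15 feedback inhibitors of MAP kinases and EGR proteins, 0 were higher and 1 was lower at the unadjusted p (edgeR; SPRY1, named after its value was seen), with a median log2 fold change of -0.08. NF1 and RASA1, which switch off RAS, NAB1, a corepressor of EGR1, and DUSP7, a phosphatase of ERK, had the highest levels. Their log2 fold changes were -0.27, 0.24, -0.05 and 0.54, and RASA1 was higher without overlap. DESeq2 called 0 of the genes in both of these lists. MAPKAPK2 had an adjusted p of 0.0344 in DESeq2, but its log2 fold change was below the 1.5 needed for a call.

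Of 18 other AP-1 and related zipper factors, 5 were higher and 1 lower at the unadjusted p, with a median log2 fold change of 0.38. CEBPB, a zipper factor of inflammatory gene expression, had 64.5, 74.3 and 33.1 CPM in the FNI nerves and 280, 188 and 135 CPM in the FNI+I-125 nerves. This was a log2 fold change of 1.81 (SE 0.40, unadjusted p = 0.00391, adjusted p = 0.280, edgeR) without overlap. DESeq2 called CEBPB, the 1 gene of this list it called (adjusted p = 0.00201). CEBPD overlapped, with a log2 fold change of 0.41. CREB5, CREM and NFIL3 were also higher at this p and ATF7 was the lower one, named after their values were seen.

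Other immediate early genes were higher at the unadjusted p in 12 of 39 cases and lower in 1, with a median log2 fold change of 0.48 and no overlap for 11 higher genes (28.2%, beside 14.8% of all genes). Of the 4 genes with the highest level, CCN2, a matrix protein induced through SRF and YAP, was higher at 249 ± 55.5 against 450 ± 64.7 CPM (SD, n = 3 each, log2 fold change 0.85). MCL1, a survival protein with a short half-life, was higher at 179 ± 31.9 against 288 ± 40.9 CPM (SD, n = 3 each, log2 fold change 0.68). Both were without overlap, and both had an adjusted p of 0.280 (edgeR). ZFP36L1, an RNA decay factor, and RHOB, a small GTPase, overlapped, with log2 fold changes of 0.52 and -0.30.

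Some early genes repeated the order of FOS within the FNI+I-125 group, and those named here were picked after their values were seen. The share of the list, or of all genes, with this order was not counted. Others of the list had another order in FNI+I-125 replicates 1, 2 and 3, such as EGR2 (16.0, 65.2 and 28.7 CPM), GADD45G (36.3, 29.6 and 13.3 CPM) and CCN2 (501, 472 and 377 CPM). ZFP36, which degrades cytokine mRNA, had 45.2, 55.4 and 40.8 CPM against 310, 65.1 and 81.2 CPM, without overlap, unlike FOS. DUSP1, the early phosphatase of MAP kinases, had 109, 58.7 and 75.1 CPM against 377, 101 and 137 CPM. PTGS2, the inducible cyclooxygenase, had 5.51, 7.12 and 8.57 CPM against 69.7, 7.37 and 25.6 CPM. In each, FNI+I-125 replicate 1 was the highest library by a wide margin and replicate 2 the lowest of its group. PER1, a clock gene that cAMP and glucocorticoids induce early, was the 1 gene of the list lower at the unadjusted p, with 279, 197 and 211 CPM against 73.3, 87.3 and 58.3 CPM. Its log2 fold change was -1.65 (SE 0.22, adjusted p = 0.280, edgeR), without overlap, as were 12.3% of all genes in this direction. DESeq2 called PER1 lower (adjusted p = 1.3e-07) and PTGS2 higher (adjusted p = 0.0373).

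**Figure D5:**
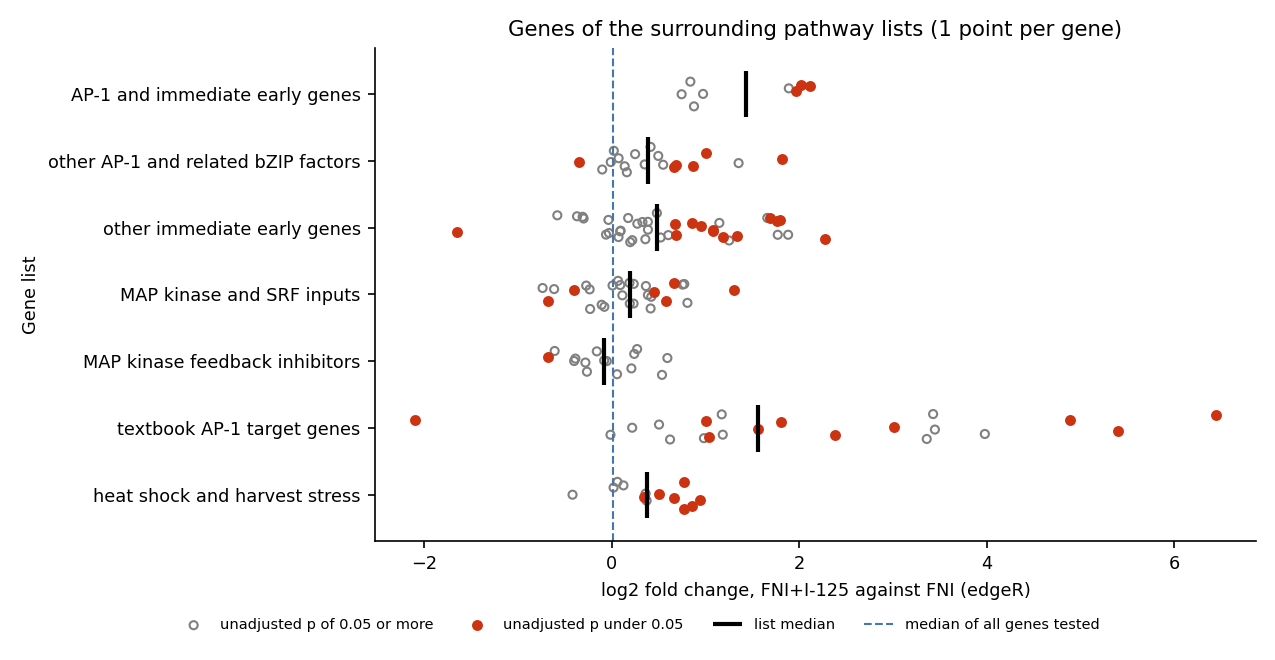
log2 fold change of FNI+I-125 against FNI for each gene of 7 lists (1 point per gene, red at an unadjusted p under 0.05 in edgeR), with the list median as a black bar and the median of all genes tested as a dashed line. The medians run from -0.08 for the feedback inhibitors to 1.43 for the AP-1 and immediate early genes and 1.56 for the textbook AP-1 targets.

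Genes that textbooks give as AP-1 targets were higher at the unadjusted p in 9 of 21 cases and lower in 1, with a median log2 fold change of 1.56. DESeq2 called 6 of the 21 higher, where 1.67% of all genes were called. The list is an inflammatory and matrix list and includes genes that other factors also control. MMP13, a collagenase with an AP-1 site in its promoter, was named after its value was seen, with 0.70, 2.96 and 0.35 CPM in the FNI nerves and 59.7, 27.4 and 82.7 CPM in the FNI+I-125 nerves. It did not share the order of FOS, since FNI+I-125 replicate 3 was its highest library. Among the genes with the highest level, TIMP1, an inhibitor of metalloproteinases, had 306, 351 and 167 CPM against 749, 397 and 507 CPM (log2 fold change 1.01, without overlap). CD44, a hyaluronan receptor, was higher without overlap (0.98), and SPP1 (1.18) and MMP12 (3.36), both abundant in macrophages, overlapped. SHH, which JUN induces in repair Schwann cells, was the gene lower at this p and was named for that, at 4.80 ± 3.04 against 1.12 ± 0.77 CPM (SD, n = 3 each). Its log2 fold change was -2.10. By library it had 4.33, 2.02 and 8.04 CPM in the FNI nerves and 1.11, 1.89 and 0.35 CPM in the FNI+I-125 nerves. The highest was FNI replicate 3, which was also highest in Schwann cell markers.

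Heat shock genes respond to heat and protein damage in the living tissue and to handling at harvest. At the unadjusted p, 7 of 13 were higher and 0 lower (edgeR), with a median log2 fold change of 0.37. Without overlap, 8 of 13 were higher (61.5%, beside 14.8% of all genes). HSPA1A, HSPA1B, HSPA1L and DNAJB1, which are also on this list, were not analysed here. DESeq2 called 0 of the 13 at a |log2 FC| of at least 1.5. Among the 4 genes with the highest level, its adjusted p was under 0.05 for HSPA8 (0.00409) and HSP90AA1 (0.0250), whose fold changes were below this threshold. HSPA8 had 556, 480 and 414 CPM in the FNI nerves and 859, 885 and 729 CPM in the FNI+I-125 nerves. Its log2 fold change was 0.77 (SE 0.18, adjusted p = 0.280, edgeR). HSP90AA1 (0.67), HSP90AB1 (0.36) and HSPA5 (0.94) were also higher without overlap. The summed heat shock level was 2457 to 3050 CPM in the FNI group and 3731 to 4480 CPM in the FNI+I-125 group. It moved with the group, and its part in the levels of FOS, EGR1 and ATF3 was not tested.

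Markers of other cell types moved with the group in part. The summed levels of macrophage, T cell, Schwann cell and adipocyte markers did not overlap between the groups. Those of neutrophil, fibroblast, endothelial, muscle, and gland and epithelial markers overlapped. Of the macrophage and monocyte markers, 13 of 13 had a higher mean in the FNI+I-125 group (median log2 fold change 1.69), led in level by LAPTM5 and CSF1R. Of 8 neutrophil markers tested, 7 were higher, with a median log2 fold change of 3.43, led by S100A9 and CSF3R. Without FNI+I-125 replicate 1 the log2 fold change of S100A9 was 0.41 and that of CSF3R 0.98. All 10 T cell markers tested were higher on average (median 1.53), 12 of 12 Schwann cell markers were lower (median -0.88), and no defining marker of these lists was at 0 in all libraries. Of 10 fibroblast markers, 8 were higher on average (median 0.37), and of 9 endothelial markers, 8 were lower (median -0.40). Of 12 muscle markers tested, 12 were higher (median 6.26), through FNI+I-125 replicates 1 and 2. Gland and epithelial markers (4 of 10 higher, 56.7 to 48867 CPM in sum) and adipocyte markers (0 of 5 higher) completed the lists. Which of these cells held the AP-1 and EGR transcripts was not tested.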

How the data were processed

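Poly(A) RNA libraries of 6 rabbit facial nerves (TruSeq stranded mRNA kit) were sequenced by the authors on an Illumina HiSeq platform. HISAT2 and OryCun2.0 are named in the submitters' processing notes, while the counting program, its strand setting and the annotation are not given in the sources used here. Without the strand setting, reads of a gene and of an antisense partner cannot be told apart. The authors deposited raw counts, as whole numbers per gene and library without normalization. Of the 2992 LOC identifiers, 542 were given a symbol from RefSeq's gene table for mOryCun1.1, and 4 older symbols (CYR61, CTGF, MKL1, MKL2) were read as CCN1, CCN2, MRTFA and MRTFB. As the builds differ, no coordinates are printed.

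FNI+I-125 was compared with FNI in R 4.3.3 with edgeR 4.0.16 (glmQLFit and glmQLFTest at their defaults, TMM, filterByExpr with a minimum count of 10), by two-sided tests whose p-values were adjusted after Benjamini-Hochberg for 14003 genes. Calls needed adjusted p < 0.05 together with a |log2 FC| of at least 1.5. The SE is the log2 fold change divided by the root of the F statistic. For single levels, log2(CPM + 1) values entered an exact permutation test. The script was tested on simulated data. DESeq2 1.42.0 and limma 3.58.1 (voom), other scalings and filters, a replicate block and leaving out libraries were the alternatives.

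Totals were 16031151 to 16798012 counts per library, and a count of 0 allows up to 3 counts (counting error alone). P-values measure the spread between 3 rabbits per group. The genes, lists and tests were chosen with earlier results of these data known. The text names the 10 genes, JUN, and the 4 genes of highest mean CPM in each of 6 pathway lists. Genes outside this rule are named as such. One gene that this rule selects is not reported here.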

Additional observations from a re-analysis of the deposited data

How the results depend on the processing

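The 8 genes kept a positive log2 fold change in all 119 values from other tools, scalings, filters, the replicate block and libraries left out, and 0 of 8 were called in each. With all genes, DESeq2 called 289 higher and 175 lower, an unadjusted p under 0.05 with a log2 fold change of 1.5 or more gave 388 and 306 (3 of the 8 genes), and leaving out 1 library gave 0 to 38 higher and 0 to 2 lower. The 38 and 2 came without FNI+I-125 replicate 3. The count of the 8 genes higher without overlap, 1 as reported, was 0 with upper-quartile scaling (11.9% of all genes), 0 to 3 with 1 library left out (0 without FNI replicate 3, 3 without FNI replicate 1 or any 1 FNI+I-125 library), and 2 without FNI replicate 3 and FNI+I-125 replicate 1. The share of all genes was 16.5% to 20.8% with 1 library left out and 22.2% without these 2, against 14.8% with all libraries. Same-numbered libraries had r across genes of 0.05, -0.19 and -0.14, within the range of -0.29 to 0.30 of differently numbered libraries. With 3 libraries per group, this cannot settle whether the numbers pair the rabbits. With the replicate block, 2 of the 8 genes had an unadjusted p under 0.05, FOSB (0.00818) and FOSL1 (0.0139), and FOS had 0.0752 (edgeR, adjusted p from 0.276 to 0.462 over the 8). FOSL1 could not be tested where each library had to hold 10 counts. The cause of the difference between DESeq2 and edgeR was not tested. The spread within a group reached 9.93-fold (FOS), and FOSL1, with 4 counts in 1 library, was also limited by depth.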
